A study of Mus musculus with 24 samples.

Results

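Skida1 (ENSMUSG00000054074), the gene named in the title of the series, was described across all 24 libraries as 1 of the 55487 genes of the count table, found by its symbol. The study compared mouse Lineage-Sca1+KIT+ (LSK) progenitors, the sorted fraction that holds hematopoietic stem cells and multipotent progenitors, from control mice and from mice with the Tet-On-ME system, in which the leukemia fusion MLL::ENL (ME) can be switched on. Sorted cells were grown for 48 hours, with the fusion induced in the dish. The 6 groups of 4 libraries were E16 control and E16 ME cells from liver, and P14 control, P14 ME, 8wk control and 8wk ME cells from bone marrow, so that at E16 tissue and age cannot be told apart. The labels do not say which alleles or inducing agent the control cells received, or which promoter drove the fusion. They also do not say whether replicates came from separate animals, and p-values may therefore measure a spread that is partly technical. Levels of Y-linked genes differed widely within every group (given below), so the 4 libraries of a group did not all share 1 source.

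SKIDA1 is a nuclear protein with a SKI/DACH domain, the fold shared by the transcriptional corepressors SKI and SKIL and by the DACH proteins. Its C-terminal region resembles that of EPOP, a protein that binds Polycomb repressive complex 2 (PRC2), the complex that methylates histone H3 in silenced genes. Fusions of MLL (Kmt2a) with ENL (Mllt1) bind chromatin at a limited set of genes, the Hoxa cluster among them, and draw in elongation factors there.

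The gene lay on GRCm38 chromosome 2 from 18040676 to 18049051 on the minus strand in GENCODE M21, with 5 annotated transcripts and an exon union of 4927 bases. Its coding sequence, 2730 bases or 909 codons without the stop, occupied positions 18045610 to 18048339 and had a GC content of 55.3%. The longest transcript had a GC content of 48.3%, beside a median of 47.1% over 55141 annotated genes. No other annotated gene overlapped the locus. The first 120 coding bases (chr2:18048220-18048339, minus strand, GC content 48.3%) are shown because they identify the gene whose reads were counted, with the start codon in capitals. The other stretch is shown because runs of codons for the same amino acid are a feature of this coding sequence. That stretch, chr2:18047602-18047685 on the minus strand with its flanks included, holds a run of 18 alanine codons. Of the bases of the run itself, 90.7% were G or C. Capitals mark the run, with 15 flanking bases on either side.
Skida1 coding start: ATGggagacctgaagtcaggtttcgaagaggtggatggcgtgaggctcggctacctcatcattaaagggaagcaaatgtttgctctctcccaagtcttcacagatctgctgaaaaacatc
Skida1 alanine codon run: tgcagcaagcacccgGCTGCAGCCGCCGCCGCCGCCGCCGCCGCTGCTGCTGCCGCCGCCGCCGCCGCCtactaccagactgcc

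Libraries held between 33.9 M and 69.3 M counts. The LSK label was checked on its defining genes: Kit ranged from 376 to 1760 CPM (the count divided by the library size in M) and Ly6a, which encodes Sca1, from 61.9 to 827 CPM over the 24 libraries. Among the depleted lineages, the T cell gene Cd3e did not exceed 0.0802 CPM and the neutrophil gene Ly6g 0.990 CPM, while the myeloid gene Itgam reached 17.9 CPM. In 3 libraries the summed level of 12 monocyte and macrophage markers differed from the other 3 of the group: 115 CPM in E16 ME replicate 4 against 508 to 604, 159 CPM in 8wk ME replicate 4 against 818 to 979, and 674 CPM in 8wk control replicate 1 against 160 to 199. In addition, E16 control replicate 1 held 1190 CPM of these markers against 437 to 511, and 10300 CPM of 12 neutrophil and promyelocyte markers against 4160 to 5850. Skida1 values without the first 3 libraries together, and without E16 control replicate 1 by itself, are given beside the results.

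Skida1 was a low-level transcript in control LSK cells at every age and rose in ME cells at every age. The rise was 20.9-fold at E16, 19.5-fold at P14 and 4.93-fold at 8wk. Within ME cells the level at 8wk was below those at E16 and P14, while the control levels did not differ past the threshold between any pair of ages. CPM values here are scaled with TMM factors, which adjust library sizes for composition.

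At E16 the 4 ME libraries held 15.8, 14.6, 12.8 and 10.8 CPM of Skida1, from 482 to 729 counts. The 4 E16 control libraries held 0.541, 0.861, 0.741 and 0.440 CPM, from 16 to 34 counts. Every ME library was above every control library, as was the case for 14.5% of the 18931 tested genes, and the 2 ranges were far apart. The means were 13.5 ± 2.21 CPM (SD, n = 4) in ME and 0.646 ± 0.190 CPM (SD, n = 4) in control cells, and the log2 fold change was 4.39 ± 0.31 (SE; edgeR quasi-likelihood test, Benjamini-Hochberg adjusted p = 4.24e-09). This is a 20.9-fold difference with a 95% interval from 13.4 to 32.7. Of all tested genes 21.8% differed at E16 (13.3% higher in ME), and Skida1 ranked as the 50th largest log2 rise. In bulk libraries, more cells with Skida1 and more Skida1 RNA per cell cannot be told apart.

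At P14 the ME libraries held 11.1, 9.33, 5.62 and 5.80 CPM, from 252 to 554 counts. The P14 control libraries held 0.258, 0.299, 0.482 and 0.574 CPM, from 12 to 34 counts. Again all ME libraries exceeded all control libraries (14.1% of tested genes did so), but the ME libraries split into a higher pair, replicates 1 and 2, and a lower pair, replicates 3 and 4. With means of 7.96 ± 2.7 and 0.403 ± 0.15 CPM (SD, n = 4 each), the log2 fold change was 4.29 ± 0.31 (SE; edgeR adjusted p = 5.67e-09), or 19.5-fold with a 95% interval from 12.5 to 30.5. At this age 22.0% of tested genes differed (12.7% higher in ME), and Skida1 ranked 85th among the rises.

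At 8wk the ME libraries held 2.37, 2.25, 1.66 and 1.86 CPM, from 84 to 105 counts. The 8wk control libraries held 0.474, 0.550, 0.384 and 0.236 CPM, from 11 to 34 counts. The lowest ME library remained above the highest control library, which held for 12.0% of tested genes, though the gap was narrow compared with the younger ages. The means were 2.03 ± 0.331 and 0.411 ± 0.135 CPM (SD, n = 4 each), the log2 fold change 2.30 ± 0.30 (SE; edgeR adjusted p = 1.45e-05) and the fold 4.93 with a 95% interval from 3.21 to 7.56. Of all tested genes 28.5% differed at 8wk (14.2% higher in ME), and Skida1 ranked 687th among the rises.

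**Figure D1:**
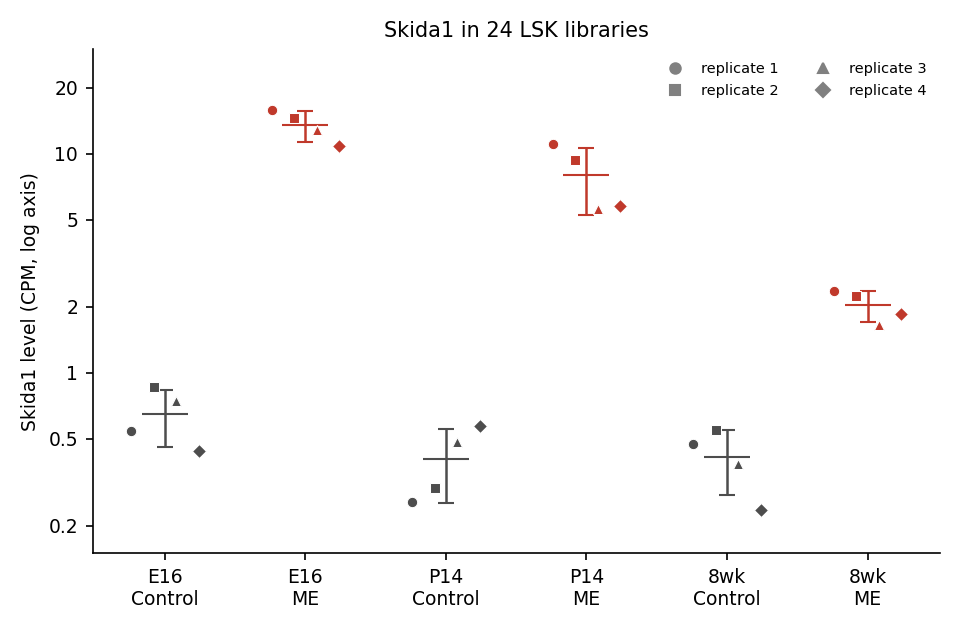
Skida1 level in CPM (log axis) in each of 24 LSK libraries by age and genotype. Marker shapes give the replicate number, horizontal bars the group mean and whiskers 1 SD (n = 4). ME libraries ran from 1.66 to 15.8 CPM and control libraries from 0.236 to 0.861 CPM. At each age every ME library sits above every control library, as for 14.5%, 14.1% and 12.0% of tested genes at E16, P14 and 8wk. The 8wk ME libraries sit below every E16 and P14 ME library, as for 9.42% and 8.01% of tested genes.

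Per kilobase of exon, the mean level was 2.74 CPM in E16 ME, 1.62 in P14 ME, 0.413 in 8wk ME, 0.131 in E16 control, 0.0835 in 8wk control and 0.0818 in P14 control cells. This is also the order of the groups by mean CPM. The 3 control groups overlapped one another, and no pair of them passed the adjusted threshold. E16 ME and P14 ME also overlapped, by the single P14 library at 11.1 CPM. The step from P14 ME to 8wk ME separated groups with no overlap, as for 8.01% of tested genes. The step from 8wk ME to E16 control did so too, but the share of tested genes separated there was not counted. On the scale of all tested genes by mean CPM, Skida1 stood above 20.7% to 25.3% of genes in the control groups, and above 55.7%, 49.5% and 36.1% in E16, P14 and 8wk ME cells.

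The lower level in 8wk ME cells was tested within the same fit. From P14 to 8wk the ME level fell by 1.97 ± 0.28 on the log2 scale (SE; edgeR adjusted p = 9.81e-05), a 3.91-fold lower level, where 11.4% of tested genes differed (5.22% lower at 8wk). From E16 to 8wk it fell by 2.73 ± 0.28 log2 (SE; edgeR adjusted p = 4.69e-07), or 6.63-fold, where 15.2% differed (7.71% lower). In the same contrasts markers of other cell types moved. At 8wk against P14, 8 of 12 neutrophil and promyelocyte markers (median 5.52 log2) were called higher and 0 lower. Of 12 monocyte and macrophage markers, 4 were called higher and 0 lower (median 2.67). Of 9 tested dendritic cell markers, 4 were called higher and 2 lower (median 1.24), and of 10 erythroid markers 0 higher and 2 lower (median 1.49). Of all 18931 tested genes, 1178 were called higher in that contrast. Against E16, 1 neutrophil marker was called higher and 0 lower (median 0.62), and 1 monocyte marker higher and 3 lower (median -1.14). In that contrast 0 of 10 erythroid markers were called higher and 5 lower (median -1.63), and 0 dendritic cell markers higher and 1 lower (median -0.43). Between ME and control cells, 7 of 10 megakaryocyte markers were called lower at E16 and 0 higher (median -2.57 log2), beside 8.47% of tested genes called lower. At 8wk 7 of 12 monocyte and macrophage markers were called higher and 0 lower (median 1.69), beside 14.2% called higher. Of the neutrophil and promyelocyte markers 1 was called lower at E16 (median -1.8) and 0 in either direction at 8wk (median 1.47). The part of all these markers in the Skida1 results was not tested. All 8wk ME libraries were below all P14 ME libraries, as for 8.01% of tested genes, and below all E16 ME libraries, as for 9.42%. The difference between P14 and E16 ME cells was -0.76 ± 0.26 log2 (SE; edgeR adjusted p = 0.0763; 9.19% of genes called) and did not pass, although it passed without P14 ME replicate 1 (-0.97, adjusted p = 0.0354) and without the first 3 libraries named above (-0.85, adjusted p = 0.0471).

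In control cells Skida1 differed by -0.66 ± 0.30 log2 between P14 and E16 (SE; edgeR adjusted p = 0.156), by 0.02 ± 0.31 between 8wk and P14 (adjusted p = 0.982) and by -0.64 ± 0.31 between 8wk and E16 (adjusted p = 0.139). In these 3 comparisons 15.1%, 12.6% and 23.3% of tested genes were called. With 11 to 34 counts per control library, the 95% interval of the 8wk to E16 difference still reached from -1.28 to -0.01 log2, so a decline of the control level with age of up to 2.43-fold lay within it.

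The question of whether the fusion raised Skida1 equally at the 3 ages was tested as the difference between ME effects, an interaction contrast that removes the control level of each age. The effect at 8wk was smaller than at E16 by 2.09 ± 0.41 log2 (difference -2.09, SE; edgeR adjusted p = 0.0170), which is 4.25-fold with a 95% interval from 2.36 to 7.66. Only 0.850% of tested genes passed in that contrast, 161 in all, of which 74 (0.391%) had a lower effect at 8wk. The effect at 8wk was also smaller than at P14, by 1.99 ± 0.41 log2 (difference -1.99, SE; edgeR adjusted p = 0.0376), or 3.96-fold with a 95% interval from 2.19 to 7.15. Here 0.301% of genes passed, 57 in all, of which 20 (0.106%) had a lower effect at 8wk. The effects at P14 and E16 differed by -0.10 ± 0.41 log2 (SE; edgeR adjusted p = 1, with 4 genes, 0.0211%, called), with a 95% interval from -0.96 to 0.76.

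The difference between 8wk and E16 effects stayed past the threshold under 38 of 40 alternative settings. It missed it with limma-voom (-2.09, adjusted p = 0.0590) and without 8wk control replicate 2 (-1.94, adjusted p = 0.0511), and without the first 3 libraries that stand apart it was -2.05 (adjusted p = 0.0114). Without E16 control replicate 1 it was -2.01 (adjusted p = 0.0436), and the ME effect at E16 was 4.31 (adjusted p = 1.21e-07). The difference between 8wk and P14 effects was less stable and passed under 21 of 40 settings. It missed the threshold on leaving out any one of 15 of the 24 libraries, which were P14 ME 1 to 4, P14 control 1 to 3, 8wk ME 1 to 3, 8wk control 2 and 3, E16 control 2 and 3 and E16 ME 2. Its value over these and the other left-out libraries ran from -2.20 to -1.75, with unadjusted p from 2.34e-05 to 0.000369 (edgeR). With the replicate number as a block within P14, where same-numbered libraries deviated together, it was -1.95 (adjusted p = 0.0785). The 3 ME effects themselves passed under all 40 settings, between 4.25 and 4.54 log2 at E16, 3.37 and 5.18 at P14 and 2.12 and 2.45 at 8wk.

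**Figure D2:**
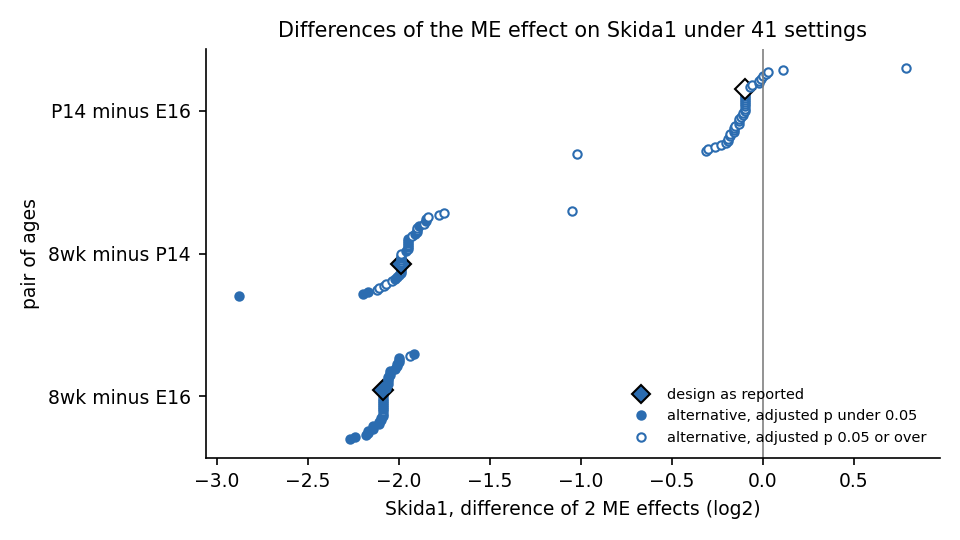
Differences of the ME effect on Skida1 between pairs of ages (log2), under the design as reported (diamonds) and under 40 alternative settings (circles, filled where the edgeR, DESeq2 or limma adjusted p was under 0.05). Differences of 8wk from E16 lie between -2.27 and -1.92, those of 8wk from P14 between -2.88 and -1.05, and those of P14 from E16 on both sides of 0.

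Each pair of groups was also compared by itself with an exact two-sided permutation test on log2(CPM + 0.1), whose smallest possible p with 4 against 4 libraries is 0.0286. The 3 ME against control pairs and the pairs of 8wk ME with P14 ME and with E16 ME all reached that smallest value (0.0514 after Benjamini-Hochberg adjustment over the 9 pairs). P14 ME against E16 ME gave an exact p of 0.0571 (adjusted 0.0857). The control pairs gave exact permutation p-values of 0.143, 0.971 and 0.143.

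The P14 split was examined because it moved the size of the effect. Replicates 1 and 2 averaged 10.2 CPM in ME and 0.278 CPM in control cells, a 36.7-fold ratio, while replicates 3 and 4 averaged 5.71 and 0.528 CPM, a 10.8-fold ratio. The ME and control levels thus moved in opposite directions between the pairs. The order in ME cells was not particular to P14. Replicates 1 and 2 held 15.8 and 14.6 CPM at E16 against 12.8 and 10.8 in replicates 3 and 4. At 8wk they held 2.37 and 2.25 CPM against 1.66 and 1.86. Control replicates 1 to 4 held 0.541, 0.861, 0.741 and 0.440 CPM at E16 and 0.474, 0.550, 0.384 and 0.236 CPM at 8wk. With P14 replicates 1 and 2 alone the ME effect at P14 was 5.18 log2 (edgeR adjusted p = 4.59e-07), and with replicates 3 and 4 alone it was 3.37 (adjusted p = 5.12e-05). The 8wk to P14 difference of effects was -2.88 (adjusted p = 0.0230) and -1.05 (adjusted p = 0.251) in the same order.

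Myeloid marker sums moved with the same split in ME and control cells, and Y-linked genes did so in ME cells only. The summed level of 12 neutrophil and promyelocyte markers was 2280, 1770, 553 and 244 CPM in P14 ME replicates 1 to 4 and 1390, 1590, 962 and 421 CPM in the controls. That of 10 mast cell and basophil markers was 67.9, 63.9, 19.5 and 12.7 CPM in ME and 117, 105, 46.4 and 37.9 CPM in control cells. Of the mast cell list, 0, 0, 3 and 3 members had no count in ME replicates 1 to 4 (Fcer1a and Tpsb2 in both of the latter), and 1, 1, 2 and 4 in the controls. Of the neutrophil list, 2, 2, 4 and 4 had none in ME and 1, 1, 2 and 2 in control replicates, Retnlg and Ly6g most often, while Mpo and Elane were counted in each P14 library. The 4 Y-linked genes summed to 0.0200, 0.103, 232 and 206 CPM in P14 ME cells and to 0.0215, 0.120, 0.0151 and 224 CPM in P14 control cells. Over the E16 libraries this sum ran from 0.738 to 197 CPM in ME and from 9.35 to 214 CPM in control cells. Over the 8wk libraries it ran from 5.68 to 269 CPM in ME and from 0.343 to 237 CPM in control cells. Kmt2a, a source gene of the fusion, held 30.8, 32.7, 22.7 and 18.7 CPM in P14 ME replicates 1 to 4. In P14 control replicates it held 10.7, 8.40, 17.1 and 15.1 CPM. Mllt1, the other source gene, held 89.3, 73.7, 63.8 and 39.8 CPM in ME and 29.8, 16.7, 27.7 and 13.6 CPM in control replicates. The part of these features in the Skida1 split was not tested. At E16 and 8wk the corresponding neutrophil sums ranged from 1010 to 6220 and from 1560 to 7190 CPM in ME and from 4160 to 10300 and from 542 to 4850 CPM in control cells.

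The 2 genes that make up the fusion were read as a check of its presence, because reads of a transgenic MLL::ENL transcript can be counted at either. Mllt1 held 41.6 to 60.0 CPM in E16 ME cells against 13.9 to 26.7 CPM in E16 control cells, with every ME library higher, and rose by 1.54 ± 0.29 log2 (SE; edgeR adjusted p = 0.000600). At P14 and 8wk its ME effects were 1.60 ± 0.29 and 1.48 ± 0.29 log2 (SE; edgeR adjusted p = 0.000360 and 0.000725). The difference of 8wk and E16 effects did not pass for Mllt1 (-0.06 ± 0.40 log2, SE; edgeR adjusted p = 0.966; 95% interval -0.89 to 0.76). Kmt2a rose by 0.85 ± 0.23, 1.03 ± 0.23 and 0.73 ± 0.23 log2 at E16, P14 and 8wk (SE; edgeR adjusted p = 0.00946, 0.00212 and 0.0183), and its 8wk call was lost without 8wk ME replicate 2 (0.67) or without 8wk control replicate 3 (0.68). The Kmt2a difference of 8wk and E16 effects was -0.12 ± 0.32 log2 (SE; edgeR adjusted p = 0.911). Whether these counts come from the transgene or from the endogenous genes was not tested.

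**Figure D3:**
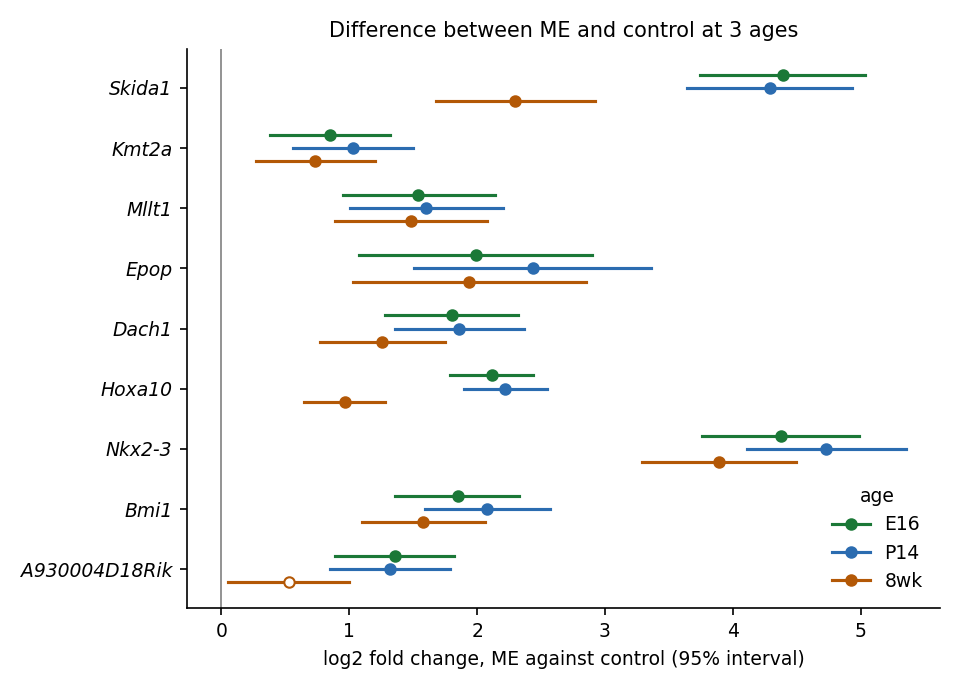
Log2 fold changes of ME against control with 95% intervals at E16, P14 and 8wk for Skida1, the 2 fusion source genes, 2 relatives of Skida1, 2 fusion targets and 2 genes near Skida1. Filled circles passed an edgeR adjusted p of 0.05, and the 8wk interval of Skida1 (1.68 to 2.92) lies below its E16 interval (3.74 to 5.03).

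Skida1's relatives were next described from a list of 7 genes, of which 5 passed the filter on low counts and Skor1 and Skor2 did not. Of these 5, 2, 3 and 3 were called higher in ME cells at E16, P14 and 8wk and 0 lower, beside 13.3%, 12.7% and 14.2% of all tested genes. The list medians were 0.37, 0.63 and 1.26 log2, against 0.02, 0.03 and -0.02 over all tested genes. Epop (GRCm38 chromosome 11, 97627389 to 97629702), the PRC2-associated protein that resembles SKIDA1, rose at all 3 ages: E16 ME cells held 22.2 ± 5.53 CPM against 5.58 ± 3.1 CPM in control cells (SD, n = 4), with no overlap at any age. Its log2 fold changes were 1.99 ± 0.44, 2.44 ± 0.44 and 1.94 ± 0.44 (SE; edgeR adjusted p = 0.00268, 0.000457 and 0.00253). The Epop effect differed by -0.05 ± 0.60 log2 between 8wk and E16 (SE; edgeR adjusted p = 0.984; 95% interval -1.30 to 1.19). Per kilobase, Epop held 10.3 CPM and Skida1 0.413 CPM in 8wk ME cells, and 9.59 and 2.74 CPM in E16 ME cells. Dach1, a DNA-binding corepressor, rose by 1.80 ± 0.25, 1.86 ± 0.24 and 1.26 ± 0.24 log2 (SE; edgeR adjusted p = 2.66e-05, 1.11e-05 and 0.000541), and its ME level rose from E16 to 8wk, where that of Skida1 fell (1.27 ± 0.24 log2, SE; edgeR adjusted p = 0.000676). In control cells Dach1 rose over the same span by 1.81 ± 0.25 log2 (SE; edgeR adjusted p = 1.41e-05). Skil, which restrains SMAD signaling, was called only at 8wk (1.80 ± 0.31 log2, SE; edgeR adjusted p = 0.000252), where its ME libraries spread from 9.09 to 42.4 CPM and overlapped the controls. Ski was called only at P14 (0.63 ± 0.21 log2, SE; adjusted p = 0.0306), and Dach2 at no age.

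Of 15 genes of PRC2 and its accessory proteins 14 were tested, Epop among them, and Ezhip was not analysed here. At E16 and P14, 5 were called higher and 1 lower, and at 8wk 6 higher and 3 lower, beside 13.3%, 12.7% and 14.2% of all tested genes called higher and 8.47%, 9.35% and 14.3% called lower. The list medians were 0.15, 0.02 and 0.14 log2. Suz12, the core subunit needed for stability of the complex, rose by 1.87 ± 0.34, 2.13 ± 0.34 and 2.28 ± 0.34 log2 (SE; edgeR adjusted p = 0.000464, 0.000126 and 7.30e-05). Aebp2, an accessory subunit that binds DNA, rose by 1.61 ± 0.26, 2.08 ± 0.26 and 2.20 ± 0.26 log2 (SE; edgeR adjusted p = 0.000113, 6.95e-06 and 5.13e-06). Eed and Phf1 were the remaining genes called higher at all 3 ages, by 0.46 to 0.83 and by 0.99 to 1.61 log2, and the histone chaperone Rbbp7 was the gene called lower at each, by -0.29 to -0.45. The P14 call of Phf1 was lost in 19 of 40 settings. At 8wk alone Phf19 was called higher (0.51 ± 0.19 log2, SE; edgeR adjusted p = 0.0464, lost in 20 of 40 settings) and Rbbp4 lower (-0.36 ± 0.11 log2, adjusted p = 0.0147). Ezh2, the methyltransferase subunit, held 72.8 to 87.7 CPM in 8wk ME cells and 94.9 to 110 CPM in 8wk control cells, a fall with no overlap, as for 9.04% of tested genes (-0.38 ± 0.08 log2, SE; edgeR adjusted p = 0.000897). Ezh2 also had a smaller effect at 8wk than at E16 (-0.46 ± 0.11 log2, SE; edgeR adjusted p = 0.0418), a call lost in 29 of 40 settings. It was the 1 PRC2 gene called in that contrast, and 0 were called in the 8wk to P14 contrast.

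A list of 25 genes known as targets of MLL fusions, which does not hold Skida1, had 24 tested members. Of these, 13, 13 and 14 were called higher at E16, P14 and 8wk and 1, 0 and 2 lower, with medians of 0.71, 0.81 and 0.57 log2. Of all tested genes 13.3%, 12.7% and 14.2% were higher and 8.47%, 9.35% and 14.3% lower. In the difference of 8wk and E16 effects 4 of 24 were called, all lower, beside 0.391% of all tested genes: Hoxa10, Lin28b, Hmga2 and Hoxa5. The count ran from 1 to 8 over the alternative settings. In that of 8wk and P14 effects 1 was, Hoxa10. Hoxa10, a homeobox gene of the cluster that MLL fusions sustain, rose by 2.12 ± 0.16, 2.22 ± 0.16 and 0.97 ± 0.15 log2 at the 3 ages, with 44.4 to 61.8, 58.1 to 88.1 and 34.1 to 44.0 CPM in ME cells. Its difference of 8wk and E16 effects was -1.15 ± 0.21 log2 (SE; edgeR adjusted p = 0.0118), and of 8wk and P14 effects -1.26 ± 0.21 log2 (adjusted p = 0.0213). The second call was lost without P14 ME replicate 4 (-1.15, adjusted p = 0.0674), without 8wk control replicate 2 (-1.24, adjusted p = 0.0572), with P14 replicates 1 and 2 alone (-0.94, adjusted p = 0.564) and with the compared groups alone (-1.25, adjusted p = 0.0727), by edgeR. The first was kept in all 40 settings. Hoxa5 rose by 1.95 ± 0.17, 1.56 ± 0.16 and 0.84 ± 0.16 log2, and its effect was smaller at 8wk than at E16 by -1.11 ± 0.23 log2 (SE; edgeR adjusted p = 0.0209), a call lost in 8 of 40 settings. The fetal RNA-binding gene Lin28b and the chromatin gene Hmga2 reached a smaller effect in another way, being lower in ME than in control cells at 8wk (-1.96 ± 0.30 and -0.72 ± 0.17 log2, SE; edgeR adjusted p = 6.81e-05 and 0.00269). Their calls in the difference of 8wk and E16 effects were lost with the compared groups alone (-1.98 and -1.13), and that of Hmga2 also with the Y-linked covariate (-1.08) and without 8wk control replicate 2 (-1.06). Nkx2-3, a homeobox gene, had an ME effect near that of Skida1 at E16 (4.38 ± 0.30 log2, SE) but still 3.89 ± 0.29 log2 at 8wk, with a difference of 8wk and E16 effects of -0.48 ± 0.38 log2 (SE; edgeR adjusted p = 0.603). Eya1 and Mecom were called higher at every age, and their differences of 8wk and E16 effects were -1.22 ± 0.30 (adjusted p = 0.0516) and -1.45 ± 0.39 log2 (adjusted p = 0.0717) by edgeR. Mef2c was called higher at every age, by 0.42 to 0.72 log2.

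The likeness of other genes to Skida1 was measured as Pearson's r of log2(CPM + 0.1) over the 24 libraries, among 11622 tested genes with a mean of at least 1 CPM. It is given as a description, since the libraries share 6 group means and sequencing depth. The median r was -0.031 and the 99th percentile 0.860. The 10 most alike were Satb1 (r = 0.936), Cdh2 (0.931), Ranbp9 (0.929), Trim14 (0.927), Shisa2 (0.922), Hoxa5 (0.916), Lmo1 (0.913), Fzd9 (0.912), Il9r (0.911) and Smad6 (0.911), each over 24 libraries. Within groups, after removal of the group means, their r with Skida1 was between -0.294 and 0.411, so the likeness lay in the group levels. The choice of measure mattered: 8 of the 10 were kept with log2(CPM + 1), 4 with Spearman's rho and 2 over the 6 group means. All 10 were called higher in ME cells at all 3 ages, which their choice by likeness to Skida1 over the same libraries nearly fixes.

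Satb1, a chromatin organiser of lymphoid progenitors, held 58.0 to 91.2 CPM in E16 ME, 37.0 to 78.6 in P14 ME and 24.9 to 36.7 in 8wk ME cells, against 16.1 to 22.8, 16.0 to 21.2 and 8.87 to 12.3 CPM in the controls. Its control level fell by -0.85 ± 0.20 log2 from E16 to 8wk (SE; edgeR adjusted p = 0.00382), and its difference of 8wk and E16 effects was -0.48 ± 0.29 log2 (adjusted p = 0.461). Ranbp9, which encodes a scaffold protein, was the gene of the 10 with the largest reduction in effect: 31.3 to 62.8, 16.2 to 20.4 and 10.3 to 12.5 CPM in ME cells at E16, P14 and 8wk gave a difference of 8wk and E16 effects of -1.65 ± 0.27 log2 (SE; edgeR adjusted p = 0.00490). Cdh2, which encodes N-cadherin, fell in ME cells from 46.0 ± 11.8 CPM at E16 to 12.7 ± 2.38 CPM at 8wk (SD, n = 4), but had almost no counts in 8wk control cells (0, 0, 0 and 0.0429 CPM). Its fitted difference of effects, 4.04 ± 0.77 log2 (SE; edgeR adjusted p = 0.0146), is opposite in sign to that of Skida1 and rests on that control level, so its size is not a bound, and its call was lost with limma-voom (3.76, adjusted p = 0.113). Of the 10, 3 were called in the difference of 8wk and E16 effects (Ranbp9, Hoxa5 and Cdh2), beside 0.850% of all tested genes. The 10 were chosen for likeness to Skida1 over the same libraries, so this count is a description only. The other 7 had differences from -1.0 (Lmo1) to 1.26 (Il9r) that did not pass.

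**Figure D4:**
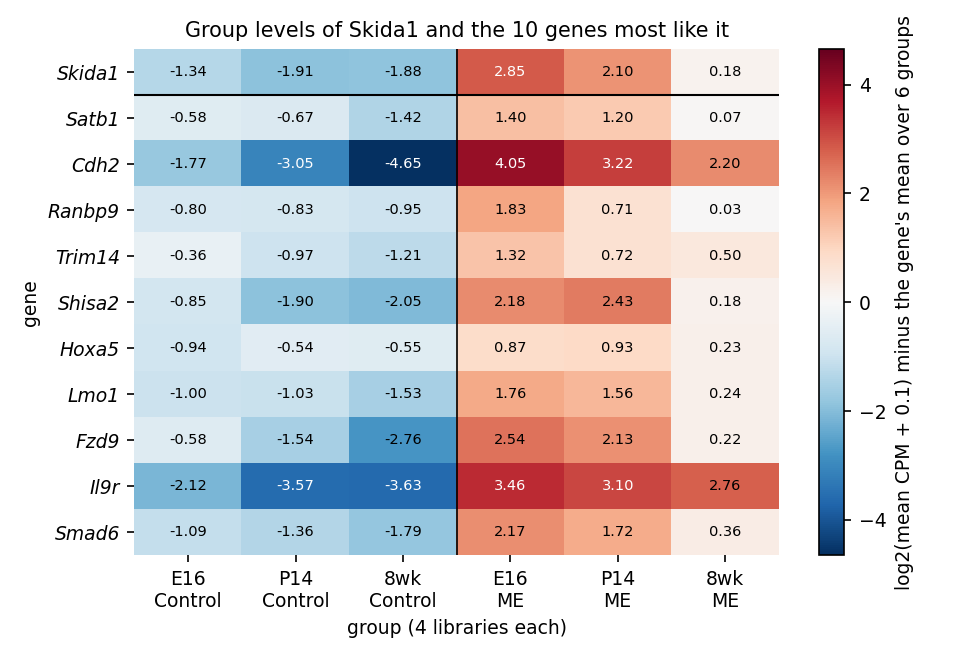
Group levels of Skida1 (top) and of the 10 genes most like it over 24 libraries, as log2(mean CPM + 0.1) minus the gene's mean over the 6 groups (4 libraries each). For each gene the 3 ME groups lie above the 3 control groups, and for Skida1 the highest cells are E16 ME (13.5 CPM) and P14 ME (7.96 CPM).

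The series' title also names B-lineage priming, and a list of 25 genes of that kind was described, all of them tested. Of these, 9, 19 and 7 were called higher in ME cells at E16, P14 and 8wk and 0 lower, with medians of 1.61, 2.5 and 1.51 log2, beside 13.3%, 12.7% and 14.2% of all tested genes called higher. None was called in any difference of effects by edgeR. The P14 count was 2 with only P14 replicates 3 and 4, and between 2 and 22 over all settings, while the E16 count ran from 6 to 17 and the 8wk count from 5 to 17. Rag2, a component of the recombinase that assembles antigen receptor genes, rose by 1.61 ± 0.29, 1.84 ± 0.29 and 0.99 ± 0.29 log2 (SE; edgeR adjusted p = 0.000328, 7.67e-05 and 0.0126). Its ME libraries fell from 15.2 to 24.0 CPM at E16 to 3.18 to 6.79 CPM at 8wk, a difference of -1.86 ± 0.29 log2 (adjusted p = 8.54e-05), while its control cells fell by -1.24 ± 0.29 log2 (adjusted p = 0.00298). The transcription factors Foxo1 and Bach2 rose by 2.02 ± 0.54, 2.74 ± 0.55 and 2.21 ± 0.54 log2 and by 2.17 ± 0.45, 1.83 ± 0.44 and 1.73 ± 0.45 log2 at the 3 ages (SE), with differences of 8wk and E16 effects of 0.20 ± 0.73 and -0.44 ± 0.62 log2 (SE).

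The surroundings of Skida1 were examined within 1 Mb on either side, where 30 annotated genes lay, of which 8 were tested. At E16, P14 and 8wk 4, 4 and 2 of the 8 were called higher in ME cells and 0 lower, beside 13.3%, 12.7% and 14.2% of all tested genes called higher, and 0 were called in any difference of effects by edgeR. The nearest tested gene, A930004D18Rik, began 2.94 kb away on the same strand (18025193 to 18037737). It held 12.8 to 15.3 CPM in E16 ME, 6.49 to 11.6 in P14 ME and 2.04 to 2.75 in 8wk ME cells, against 4.87 to 6.85, 3.08 to 3.81 and 1.03 to 2.40 CPM in the controls, so that the groups were apart at E16 and P14 and overlapped at 8wk. Its ME effects were 1.36 ± 0.23, 1.32 ± 0.23 and 0.53 ± 0.23 log2 (SE; edgeR adjusted p = 0.000185, 0.000203 and 0.0925), the difference of 8wk and E16 effects was -0.83 ± 0.32 log2 (adjusted p = 0.219), and its fall in ME cells from E16 to 8wk was -2.5 ± 0.24 log2 (adjusted p = 1.11e-07). Its control level fell over that span by -1.67 ± 0.23 log2 (SE; edgeR adjusted p = 1.58e-05).

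Mllt10, a partner gene of MLL in other fusions, lay 6.19 kb away on the opposite strand and was not called at any age (-0.17 ± 0.10, -0.10 ± 0.10 and -0.18 ± 0.10 log2, SE). Its libraries held 30.8 to 48.1 CPM over all groups, and ME and control cells overlapped at each age. Farther off, Bmi1, which encodes a subunit of Polycomb repressive complex 1, lay 628 kb away and rose by 1.85 ± 0.24, 2.08 ± 0.24 and 1.58 ± 0.23 log2 (SE; edgeR adjusted p = 1.17e-05, 2.62e-06 and 5.47e-05). Pip4k2a, a phosphoinositide kinase gene 793 kb away, rose by 1.10 ± 0.24, 1.27 ± 0.24 and 1.2 ± 0.24 log2 (SE; edgeR adjusted p = 0.00256, 0.000650 and 0.00100). Dnajc1 was called higher at E16 and P14 (0.81 ± 0.28 and 0.88 ± 0.28 log2, SE; edgeR adjusted p = 0.0432 and 0.0269), calls lost in 18 and 9 of 40 settings. Commd3, Nebl and the pseudogene Gm13352 were not called.

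**Figure D5:**
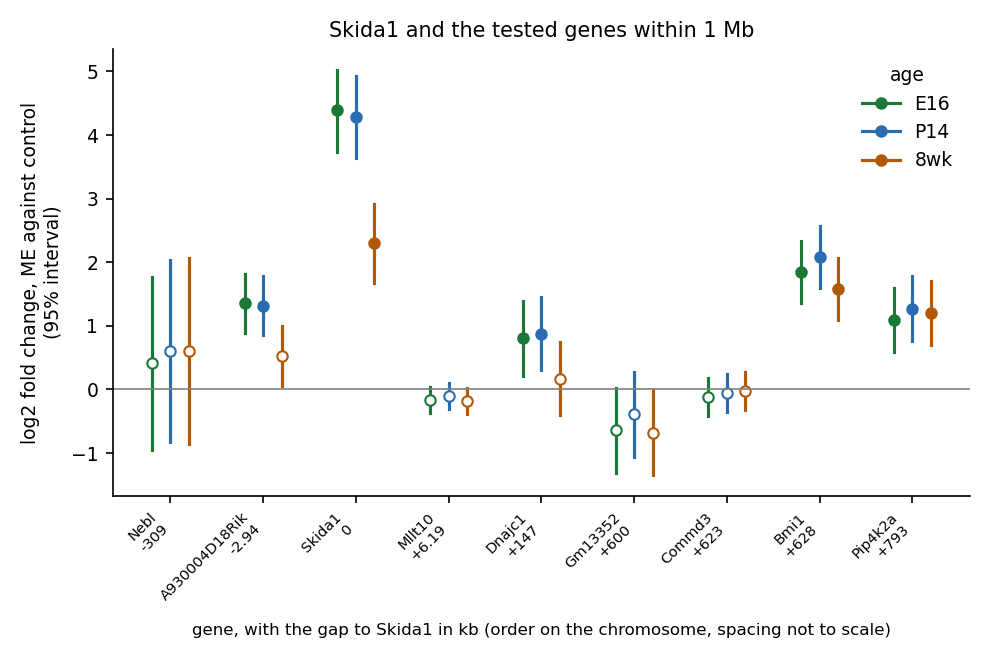
Log2 fold changes of ME against control with 95% intervals for Skida1 and the 8 tested genes within 1 Mb, in chromosome order with the gap to Skida1 in kb under each name. Filled circles passed an edgeR adjusted p of 0.05. Skida1, at 4.39, 4.29 and 2.30, lies above each neighbour, and Mllt10 at 6.19 kb lies near 0.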

How the data were processed

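Bulk RNA-seq counts of 24 mouse libraries (4 in each of 6 groups, from the sample titles) were used. The values are raw counts per Ensembl gene, deposited as 1 table of 55774 lines and 55487 identifiers, and the submitters' processing notes name STAR 2.7.9a, Subread, featureCounts 2.0.3 and the build GRCm38. Total RNA was extracted with an RNeasy kit, per the labels' protocols. The annotation release, strand setting and filters are not given in the sources used here. Repeated lines of 168 identifiers were identical and were kept once. In the median library 63.6% of counts from 1 to 20 were even (14 of 24 for Skida1), a pattern that mate-wise counting of read pairs would give, so halved counts were tried. Library totals were 33.9 M to 69.3 M (median 47.1 M), with 22259 to 25501 genes detected.

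The 18931 genes that passed filterByExpr (minimum count 10) were fitted over all 24 libraries with TMM factors, 1 mean per group and edgeR 4.0.16 (R 4.3.3; quasi-likelihood, robust option). Benjamini-Hochberg adjustment ran over all tested genes in each of 12 contrasts, and calls used an adjusted p under 0.05. Alternatives were other scaling and filters, DESeq2 1.42.0, limma 3.58.1 voom, a replicate block, a Y-linked covariate, halved counts, the compared groups alone, each library left out, a GC correction, and P14 pairs. The GC correction, the setting without 3 libraries and the P14 settings were chosen after seeing the data. Same-numbered ME and control libraries correlated at P14 (r of deviations 0.143 to 0.261) and not at E16 (-0.050 to -0.000) or at all numbers of 8wk (-0.119 to 0.125), so a block was also fitted within P14. Exact permutation tests covered 9 pairs of groups.

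Skida1, the gene lists and the comparisons were chosen with earlier results of these data known. Named genes were Skida1, Kmt2a, Mllt1, the 10 genes most like Skida1 with clone-type symbols passed over, the relatives and PRC2 genes, tested neighbours within 1 Mb, and up to 10 members each of the fusion target and B-lineage lists, ranked by adjusted p in the 8wk to E16 difference and then in the ME comparisons. Coordinates and sequences come from GENCODE M21 and GRCm38. Some marker genes and 1 sequence are not reported here. Skida1 was fitted with n = 4 per group.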

Additional observations from a re-analysis of the deposited data

Results flagged for a closer look

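Of 144 groups of 4 libraries looked at in 24 genes, 15 had a library whose gap to the nearest other library took up more of the range than Dixon's 95% limit allows, and chance marks about 1 in 20. None of the 6 groups of Skida1 was among them. In 8wk control cells these were Mllt1 in replicate 3 (9.90 CPM, the next 19.0), Ezh2 in replicate 1 (94.9 CPM, the next 109), Lmo1 in replicate 1 (4.30 CPM, the next 1.54) and Cdh2 in replicate 4 (0.0429 CPM, the others 0). In E16 control cells they were Dach1 in replicate 4 (1.60 CPM, the next 1.33), A930004D18Rik in replicate 4 (6.85 CPM, the next 4.98), Smad6 in replicate 1 (0.802 CPM, the next 0.218) and Mllt10 in replicate 1 (39.3 CPM, the next 45.4). In P14 control cells they were Shisa2 in replicate 4 (0.0338 CPM, the next 0.15) and Hoxa5 in replicate 1 (0.816 CPM, the next 0.942). Among ME libraries, E16 replicate 4 was set apart for Ranbp9 (62.8 CPM, the next 34.9) and Lin28b (33.3 CPM, the next 53.3), P14 replicate 4 for Satb1 (37.0 CPM, the next 72.6) and Shisa2 (1.43 CPM, the next 5.32), and 8wk replicate 4 for Fzd9 (0.857 CPM, the next 2.25).

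ME effects that differed between ages by the edgeR interaction test, in log2, were those of Skida1 (-2.09 for 8wk minus E16 and -1.99 for 8wk minus P14), Hoxa10 (-1.15 and -1.26), and, for 8wk minus E16, Cdh2 (4.04), Ezh2 (-0.46), Hmga2 (-1.16), Hoxa5 (-1.11), Lin28b (-2.01) and Ranbp9 (-1.65).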

How the results depend on the processing

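The Skida1 ME effects at the 3 ages and the falls in ME cells from P14 to 8wk and from E16 to 8wk kept direction and call under all 40 settings. Values below are log2, with adjusted p in parentheses. For the difference of 8wk and E16 effects, limma-voom gave -2.09 (0.0590), and leaving out 1 library gave -2.27 to -1.92. For that of 8wk and P14 effects, the call was missed by limma-voom at -1.95 (0.130), by the compared groups alone at -1.99 (0.135), by the block within P14 at -1.95 (0.0785) and by P14 replicates 3 and 4 alone at -1.05 (0.251), with -2.20 to -1.75 on leaving out 1 library. For that of P14 and E16 effects, never called, P14 replicates 1 and 2 alone gave 0.79 and left-out libraries -0.31 to 0.11. P14 against E16 in ME cells was called by DESeq2 at -0.77, limma-voom at -0.81, halved counts at -0.76, GC correction with replicate block at -0.79, without the first 3 libraries that stand apart at -0.85 and with P14 replicates 3 and 4 alone at -1.24, with -0.97 to -0.63 on leaving out 1 library. The same contrast in control cells was called with P14 replicates 1 and 2 alone at -1.19. Control 8wk against P14, near 0 and never called, turned sign with relative log expression factors, no filter and GC correction (each -0.00), library size only and the compared groups alone (-0.02), DESeq2 (-0.01), the replicate block (-0.05), the block with GC correction and without the 3 libraries (-0.07), the block within P14 (-0.12), P14 replicates 3 and 4 alone (-0.43) and left-out libraries (-0.18 to 0.23). With library size only, the exact permutation of P14 ME against E16 ME gave -0.78 (p = 0.0286) and that of the 8wk and P14 controls -0.01. With the replicate number as a block over all ages, the differences of effects were -1.89 (8wk minus P14) and -2.07 (8wk minus E16). This block changed no Skida1 call, these 2 included. Over all tested genes, the numbers paired ME with control libraries at P14 only. Skida1 in ME cells was nevertheless higher in replicates 1 and 2 than in 3 and 4 at every age. The likeness list shared 4 genes with that by Spearman's rho and 2 with that over group means. The number of called genes moved from 4168 to 1273 at P14 with P14 replicates 1 and 2 alone, and from 5392 at 8wk to 2907 with the compared groups alone and 3433 without 8wk control replicate 3. It ran from 0 to 1009 for the 8wk minus P14 difference (57 as reported), from 48 to 1362 for 8wk minus E16 (161) and from 0 to 29 for P14 minus E16 (4). For the ages within ME cells it ran from 675 to 2623 for P14 against E16 (1740), from 764 to 3454 for 8wk against P14 (2166) and from 1793 to 3418 for 8wk against E16 (2885), and within control cells from 1014 to 3696 (2862) and from 302 to 3605 (2384) for the first 2 of these. The share called higher was 61.1% at E16, 57.5% at P14 and 49.8% at 8wk, and became 74.6% and 70.5% at E16 and P14 with library size only, 46.7% at P14 with GC correction, 83.8% with P14 replicates 1 and 2 alone, and 60.4% and 67.9% at 8wk in the 2 settings above. Control libraries held 11 to 34 Skida1 counts, which limits the precision of each effect.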
